A study of Mus musculus with 8 samples.

Results

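Mouse J1 embryonic stem (ES) cells that overexpressed Zscan4c were compared with J1 cells in which Zscan4 was knocked down. Each group had 2 RNA-seq libraries, so 4 of the 8 libraries of the study entered the comparison, and the 4 control libraries served as its background. The comparison covered the 17409 genes listed in both deposited gene tables, of 18821 listed in either, and the 763 repeat names listed in both repeat tables. The depleted cells, called KD Zscan4 here, carried an shRNA against Zscan4 in the pSuper puro vector, and their controls (KD control) are labelled as the random control of the knockdown. The overexpressing cells, called OE Zscan4, carried the coding region of Zscan4c in pCMV-tag2, and the labels give its controls (OE control) no more than the name of control, and do not say what plasmid they carried. The genotype label was Zscan4 knocked down in KD Zscan4, Zscan4c overexpressed in OE Zscan4 and wild type in both controls. All 8 libraries came from J1, a male ES cell line whose strain is labelled 12910la. The cells were kept on gelatin, in 15% serum with 10 ng/ml LIF, and no feeder layer is named.

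Both arms received 1000 ng of plasmid, and selection began after 24 h. The KD arm then had puromycin at 2 µg/ml for 7 days, and the OE arm had G418 at 500 µg/ml for 10 days. Single clones were picked in both arms, and the labels do not say whether the 2 libraries of a group came from different clones. The vector, the drug, the days of selection and the clones differ between OE Zscan4 and KD Zscan4 together with Zscan4 itself, and they cannot be told apart in the direct comparison. For this reason the difference between the controls, OE control minus KD control, is given beside the results. The excess is the Zscan4 difference less the control difference, tested in the same fit. P-values measure the spread between these libraries, which may be technical.

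Zscan4 genes encode nuclear proteins with a SCAN domain and zinc fingers. They are expressed in the late 2-cell mouse embryo, and in ES cell cultures they are on in only a small share of cells at any time, in bursts. In those cells they come on together with the transcription factor Dux, MERVL endogenous retroviruses, genes driven from MERVL long terminal repeats (MT2) and other genes of the 2-cell embryo. Zscan4 has been linked to telomere lengthening by recombination and to loss of DNA methylation in ES cells. In bulk RNA, more cells of the 2-cell-like kind and more RNA per such cell cannot be told apart.

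The Zscan4 genes lie in a cluster on chromosome 7 and are near-identical copies, which the windows before their start sites show. The following 3 sequences are the 250 bases before the RefSeq start of Zscan4c, Zscan4d and Zscan4f, from build GRCm38.p6 (mm10), each on the strand of its gene. They show how alike the copies are, which is why the family is given as a sum as well as by member. Capitals mark TATAAAA on the gene's strand and TGATTNAA on either strand.
Zscan4c (chr7:11005495-11005744, plus strand): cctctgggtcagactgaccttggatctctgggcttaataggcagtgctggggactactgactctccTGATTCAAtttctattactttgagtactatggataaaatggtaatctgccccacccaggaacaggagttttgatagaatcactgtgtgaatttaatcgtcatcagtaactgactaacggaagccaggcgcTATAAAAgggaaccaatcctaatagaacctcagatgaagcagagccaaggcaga
Zscan4d (chr7:11166149-11166398, minus strand): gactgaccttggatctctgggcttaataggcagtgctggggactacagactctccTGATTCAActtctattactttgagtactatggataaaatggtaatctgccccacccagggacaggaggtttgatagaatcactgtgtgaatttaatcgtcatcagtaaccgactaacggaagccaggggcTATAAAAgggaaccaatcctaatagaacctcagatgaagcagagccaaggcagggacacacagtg
Zscan4f (chr7:11397665-11397914, plus strand): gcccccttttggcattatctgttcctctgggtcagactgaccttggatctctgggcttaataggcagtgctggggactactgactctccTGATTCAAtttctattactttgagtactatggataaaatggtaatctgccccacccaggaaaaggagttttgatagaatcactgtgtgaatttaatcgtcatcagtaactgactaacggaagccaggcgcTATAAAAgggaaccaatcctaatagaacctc
Aligned without gaps, the windows of Zscan4c and Zscan4f matched at 226 of 227 shared bases (99.6%), and those of Zscan4c and Zscan4d at 232 of 239 (97.1%). Of the 42 genes of the Zscan4 family and of the 2-cell list described next that were measured, 17 had a RefSeq window. TATAAAA was found in 7 of these 17 windows, in Zscan4b, Zscan4c, Zscan4d, Zscan4f, Usp17lb, Usp17lc and Usp17ld, and in 3.02% of all 32851 RefSeq windows. TGATTNAA was found in 7 of the 17, in the same 4 Zscan4 genes and in Duxf3, Gm4027 and Gm21761, and in 2.6% of all windows. TGCACAC, searched on both strands, was found in none of the 17 and in 3.67% of all windows. A match describes these letters only.

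Libraries held 17392177 to 22381633 reads on genes. Values are normalised reads: whole reads recovered from the deposited tables, divided by an effective library size (TMM) and multiplied by its mean over the 8 libraries. Differences are on the log2(value + 1) scale, OE minus KD, with the standard error (SE) and a Benjamini-Hochberg adjusted p from limma, and a gene was called at an adjusted p of up to 0.05. Between the libraries of a group, counts varied beyond sampling noise in every group (chi-square divided by its degrees of freedom 2.85 in KD control, 4.57 in KD Zscan4, 4.84 in OE control and 3.11 in OE Zscan4). With 2 against 2 libraries an exact permutation test of 1 gene cannot go below a p of 0.333. The ES cell marker Pou5f1 was high in all 8 libraries, at 29262 and 27197 normalised reads in KD Zscan4, 29319.6 and 29315 in OE Zscan4, 30995 and 30956 in KD control and 20836 and 19625 in OE control.

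OE Zscan4 and KD Zscan4 differed in 4609 genes, of which 2609 were higher in OE Zscan4 (15% of those tested) and 2000 lower (11.5%). The 2 controls differed in 10662 genes, 5429 higher in OE control (31.2%) and 5233 lower (30.1%). At least 2-fold differences were fewer between the Zscan4 groups than between the controls, with 261 higher (1.5%) and 99 lower (0.569%) against 1932 higher (11.1%) and 1348 lower (7.74%). Over the 14764 genes with a mean of at least 20 normalised reads, the median absolute difference was 0.21 between the Zscan4 groups and 0.45 between the controls. The excess was called upward in 4054 genes (23.3%) and downward in 3750 (21.5%). It is a signed difference, so it can also be called where only the controls differ. Genes that were called in the Zscan4 comparison and in the excess, both in the same direction, numbered 905 higher (5.2%) and 631 lower (3.62%). The count of 4609 was 2011 without OE Zscan4 replicate 2. Of the genes lower in OE Zscan4, 826 were called without OE Zscan4 replicate 2, 1294 without OE Zscan4 replicate 1, 1167 without KD Zscan4 replicate 1 and 1268 without KD Zscan4 replicate 2.

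Small differences between the arms followed the base composition of the transcripts. The 12994 protein-coding genes with means of 20 or more were put into 10 bins by GC content. The lowest bin (median 39.8% in the longest transcript) had a median Zscan4 difference of 0.36, and 723 of its 1300 genes were higher and 6 lower. The highest bin (median 60.0%) had a median of -0.21, with 31 genes higher and 438 lower. The controls showed the same trend, from 0.33 to -0.29. After a smooth of each library's values on GC content was removed, a step added after the data were seen, 1155 genes (6.64%) were higher and 1267 (7.29%) lower in OE Zscan4. Of these, 194 (1.12%) and 78 (0.449%) were at least 2-fold, among them 186 and 60 of the 261 and 99 above. The controls then differed in 4786 genes higher (27.5%) and 5456 lower (31.4%), and the excess was called in 7841 genes against 7804 before. The GC-removed difference is therefore given beside named genes whose call it ends.

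**Figure D1:**
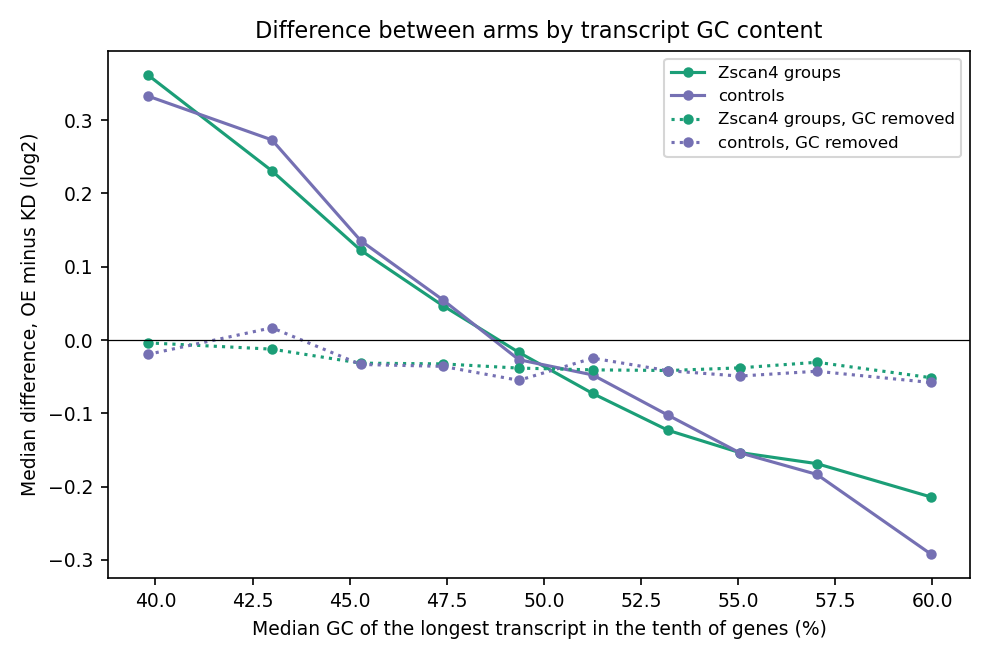
Median difference between arms (log2, OE minus KD; y axis) in 10 bins of 12994 protein-coding genes ordered by GC content (median of each bin in %, x axis), between the Zscan4 groups and between the controls, before (solid) and after (dotted) removal of GC content. Before removal, the medians of the Zscan4 groups ran from 0.36 in the lowest bin to -0.21 in the highest, and those of the controls from 0.33 to -0.29.

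All 9 measured members of the Zscan4 family were higher in OE Zscan4 than in KD Zscan4. Their median difference was 5.999, against a median of 0.00 over all genes tested, and all 9 were lower in OE control than in KD control, with a median of -3.14. Summed over the family, the difference was 5.59 (SE 0.12) and the excess over the controls 8.83 (SE 0.17). The summed level was 97.3 and 137 normalised reads in the 2 KD Zscan4 libraries and 5904 and 5359 in the 2 OE Zscan4 libraries. The KD control libraries held 3785 and 3356 and the OE control libraries 362 and 392. The order was thus OE Zscan4, KD control, OE control, KD Zscan4, with no overlap between any of the 4 groups.

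Zscan4c (ENSMUSG00000054272, chr7:11005745-11010547), the member that the OE vector carries, was at 11.2 and 15.6 normalised reads in KD Zscan4 and at 1079 and 989.8 in OE Zscan4. It was at 580.1 and 569.6 in KD control and 60.3 and 75.8 in OE control. Its difference was 6.18 (SE 0.16, adjusted p = 9.1e-13), with a control difference of -3.07 in the opposite direction. Zscan4d, the member best known from the 2-cell embryo, was at 11.2 and 24.4 in KD Zscan4 and 650.3 and 671 in OE Zscan4, a difference of 5.23 (SE 0.24, adjusted p = 2e-09). Zscan4a, at 4.06 and 6.84 against 745 and 630.5, had the largest difference of the 9 members at 6.77, and Zscan4b, at 12.2 and 22.5 against 309.7 and 229, the smallest at 3.93. Zscan4e and Zscan4f differed by 4.06 and 5.999. Zscan4-ps1, Zscan4-ps2 and Zscan4-ps3 differed by 5.75, 6.11 and 6.45. The annotation used here types these 3 as protein-coding, whatever their symbols say, and Zscan4a as an unprocessed pseudogene. The vector holds the coding region of Zscan4c alone, and how reads of near-identical copies were shared among members is not given in the sources used here, so the split between members is uncertain.

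Genes of the 2-cell program followed the family. Of 60 listed, 33 were measured, and 30 were higher in OE Zscan4 and 0 lower, beside 15% and 11.5% of all genes. Their median difference was 2.98. Between the controls, 0 were higher and 30 lower, with a median of -2.21. All 30 were also called in the excess, and 28 stayed called with GC content removed. DESeq2, which gives no adjusted p to genes of low counts, called 19. Genes of low counts were also absent from a deposited table. Some members may have been listed only through OE Zscan4 and KD control, where they are high, so 30 of 33 is a description. Several members are copies within families, such as the Usp17l genes, and their reads may be shared, so the 30 calls are not independent. Trim43a, called between the Zscan4 groups, had a control difference of -0.22 (adjusted p = 0.71), and AU018091 (0.18, adjusted p = 0.079), Zfp750 (-0.48) and Zfp809 (0.22) were not called between the Zscan4 groups. The whole list summed to 2159 and 2444 normalised reads in KD Zscan4 and to 6547 and 6039 in OE Zscan4, and to 5362 and 4932 in KD control and 1878 and 2185 in OE control.

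Tcstv3, a gene of the 2-cell embryo that has been tied to telomere length in ES cells, was at 2.03 and 2.93 in KD Zscan4 and 41.6 and 41.7 in OE Zscan4 (difference 3.63, SE 0.44, adjusted p = 5.1e-05). Usp17lc and Usp17ld encode deubiquitinases of a tandem family. Usp17lc was at 8.11 and 7.82 against 123 and 79.6, a difference of 3.48 (SE 0.30), and Usp17ld at 6.08 and 3.91 against 76.9 and 64.5, a difference of 3.60 (SE 0.41). Gm4340 and Gm21304, 2-cell genes of one cluster on chromosome 10, were at 40.6 and 54.7 against 504 and 430.4 and at 16.2 and 18.6 against 237 and 193. Their differences were 3.28 and 3.55, and their control differences -3.51 and -3.49. In each of these 5 genes the KD Zscan4 and OE Zscan4 libraries did not overlap, as in all 2609 genes called higher in OE Zscan4. The 2 controls did not overlap in these 5 genes either.

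Dux, which activates the 2-cell program, was near its detection limit. Duxf3 had 1 read in the 2 KD Zscan4 libraries together and 15 in the 2 OE Zscan4 libraries, a ratio of 15.1 with a 95% exact counting interval of 2.33 to 637, and its call was lost without KD Zscan4 replicate 1 and without either OE Zscan4 library. Genes with very few reads in KD Zscan4 were among the largest rises. Gm7104 had 0 reads in KD Zscan4 and 44 in OE Zscan4, at least 14.8-fold higher against a floor of 3 reads over the group. BC147527 had 1 read against 51 (ratio 51.5, interval 8.83 to 2072), and the unnamed gene ENSMUSG00000091585 had 3 against 86 (28.9, interval 9.57 to 143). Tdpoz4 had 3 against 20 (6.73, interval 2.00 to 35.4), and its call was lost with GC content removed (adjusted p = 0.053). B020004J07Rik had 3 against 26 (8.75, interval 2.68 to 45.1). These intervals cover counting error only. Other large rises were Gm8300 (3.74), Gm2022 (3.72), Gm18983 (3.65) and Gm21037 (3.49), all lower in OE control than in KD control.

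**Figure D2:**
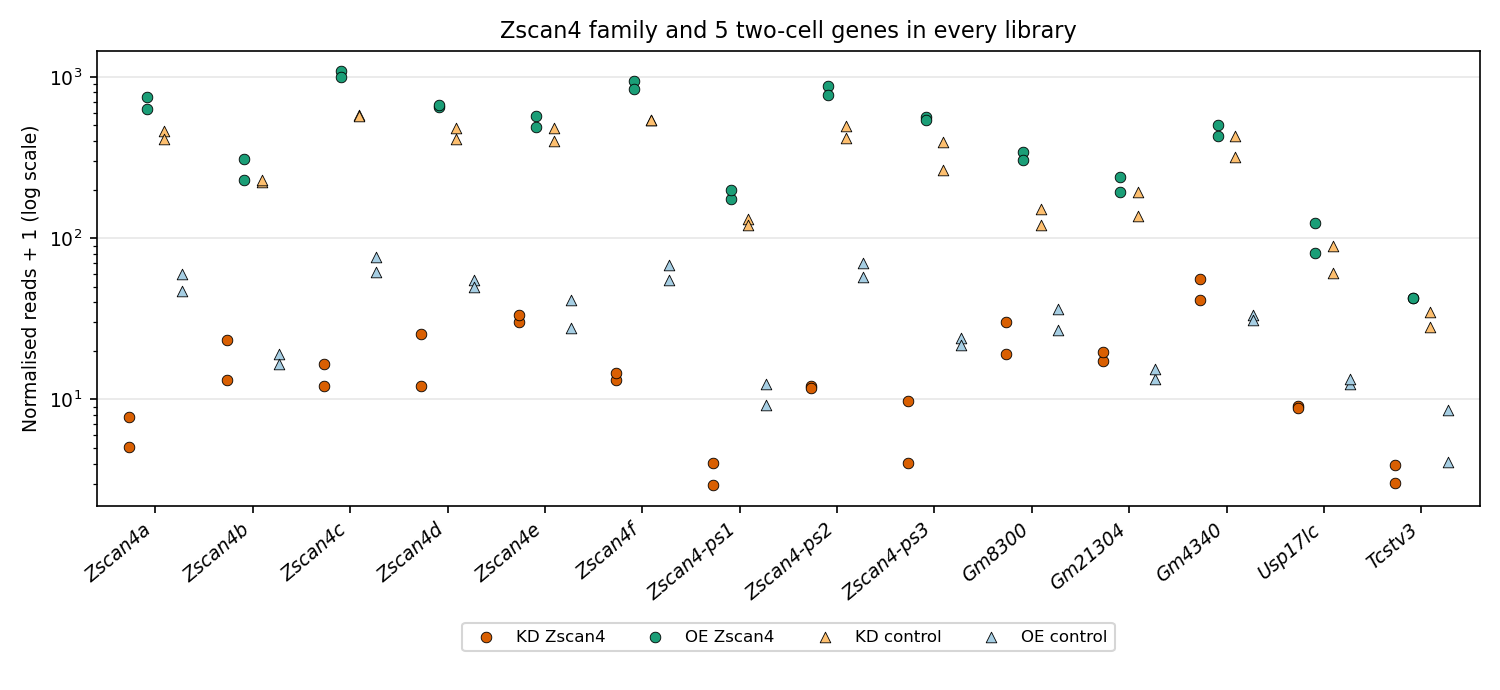
Normalised reads + 1 (log axis) of the 9 Zscan4 family members and 5 2-cell genes in every library; each point is 1 library, circles are the Zscan4 groups and triangles the controls. In the family sum KD Zscan4 was lowest and OE Zscan4 highest, and in all 14 genes KD control lay above OE control.

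Repeats showed the same pattern in a few names. Between the Zscan4 groups 9 repeat names were higher (1.18%) and 8 lower (1.05%), against 69 higher (9.04%) and 110 lower (14.4%) between the controls. The excess was called upward in 64 (8.39%) and downward in 23 (3.01%). Reads over repeat names per 100 gene reads were 1.58 and 1.86 in KD Zscan4, 2.11 and 2.10 in OE Zscan4, 1.83 and 1.76 in KD control and 1.78 and 2.36 in OE control. Repeats were scaled over repeat names. With the scaling of the genes the median of all repeats moved to 0.35, and 34 names were then higher (4.46%) and 0 lower (0.0%), so that a fall of a repeat is a fall relative to the other repeats. The rises numbered 5 without KD Zscan4 replicate 1, 23 without KD Zscan4 replicate 2, 3 without OE Zscan4 replicate 1 and 5 without OE Zscan4 replicate 2, and the falls 3 without KD Zscan4 replicate 1, 4 without OE Zscan4 replicate 1 and 3 without OE Zscan4 replicate 2. Between the controls 119 names were called in either direction without KD control replicate 2 and 111 without OE control replicate 2.

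MERVL-int, the internal part of the MERVL retrovirus, was at 1206 and 1436 normalised reads in KD Zscan4 and 6865 and 6226 in OE Zscan4. It was at 7307 and 7068 in KD control and 791 and 681 in OE control. The difference was 2.31 (SE 0.08, adjusted p = 1.9e-12) and the control difference -3.29. Its long terminal repeat MT2_Mm was at 394 and 445 against 1535 and 1519.9, a difference of 1.86 (SE 0.09, adjusted p = 9.6e-11). OE Zscan4 and KD control were high in both names, and the 2 other groups low. Of 8 MERVL-related names measured, these 2 were called. Leaving out any 1 of the 4 libraries ended neither call.

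ERVB4_2-LTR_MM, an endogenous retrovirus terminal repeat, rose from 7.11 and 11.1 to 32.5 and 36.2 (1.84, SE 0.44, adjusted p = 0.034), and RLTR6B_Mm from 88.8 and 68.5 to 219 and 209 (1.44, SE 0.15). ORR1A3-int differed by 0.66 (SE 0.11, adjusted p = 0.0028), and by 1.01 with the scaling of the genes. The call of ERVB4_2-LTR_MM was lost without KD Zscan4 replicate 1 and without either OE Zscan4 library, and that of ORR1A3-int without OE Zscan4 replicate 1. Among 6 names listed as young LINE-1 elements, of which only some kinds still copy themselves in the mouse, 2 were higher and 0 lower. The median of the 6 was 0.43. Both calls were lost without KD Zscan4 replicate 1 or without either OE Zscan4 library, while more names were called without KD Zscan4 replicate 2. L1Md_A differed by 0.46 and L1Md_F3 by 0.43. Between the controls all 6 were lower, with a median of -1.56. The lower names were led by RLTR34C_MM (-0.75), MURVY-LTR (-0.68), RLTR9E (-0.63), MMERVK9C_I-int (-0.62) and RLTR1B-int (-0.58), none of them called with the scaling of the genes. RLTR34C_MM was called only without OE Zscan4 replicate 1 when 1 library was left out, MURVY-LTR was not called without KD Zscan4 replicate 1 or OE Zscan4 replicate 1, and MMERVK9C_I-int not without OE Zscan4 replicate 2. RLTR34C_MM and MURVY-LTR were also not called in a fit of the 4 libraries alone. None of 20 IAP names was called in either direction, with a median of -0.05. Of 20 ETn, MusD and MERVK names 2 were higher and 1 lower, of 15 ERV1 names 1 was higher and 2 lower, and of 18 SINE names 0 were higher and 1 lower. None of these SINE names was lower without KD Zscan4 replicate 1 or without either OE Zscan4 library, and 1 ERV1 name was. No ETn, MusD or MERVK name was higher without OE Zscan4 replicate 1, 1 was without KD Zscan4 replicate 1 or OE Zscan4 replicate 2, and none was lower without OE Zscan4 replicate 2.

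**Figure D3:**
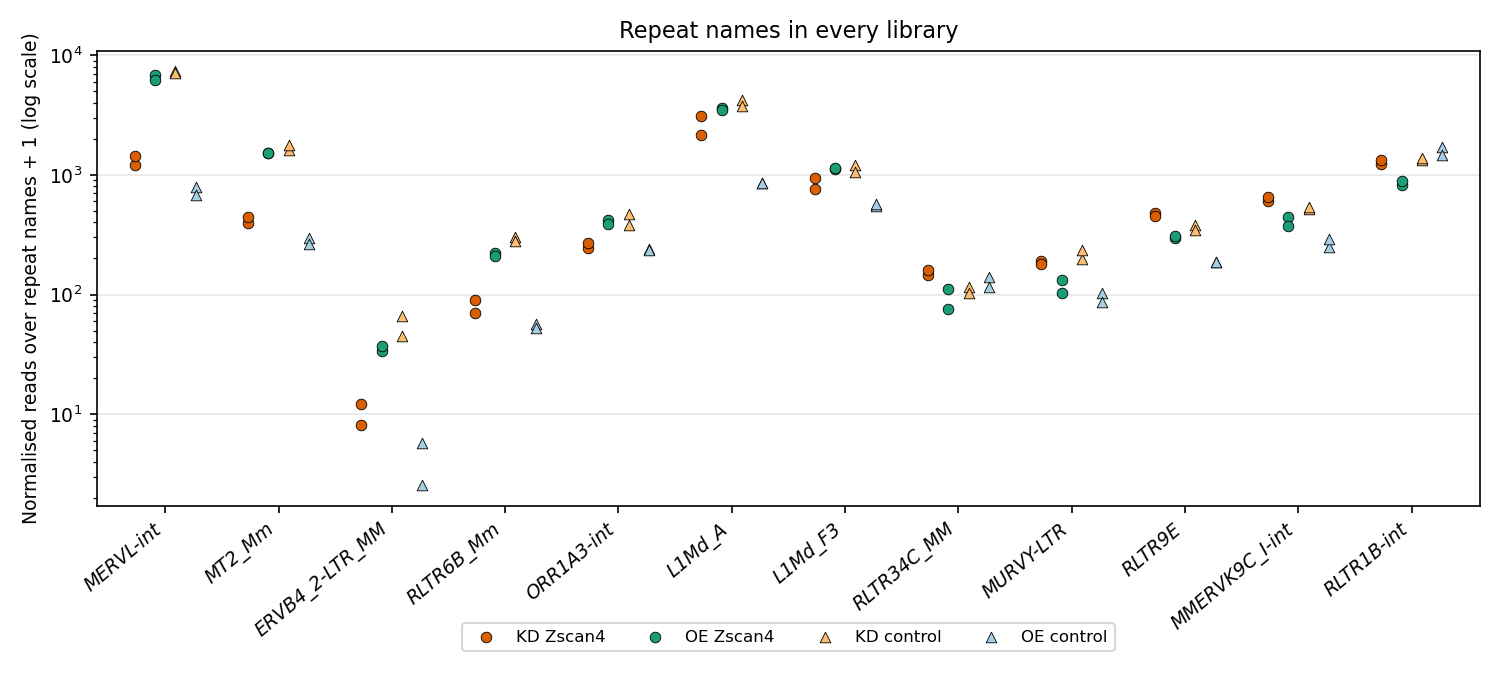
Normalised reads + 1 over repeat names (log axis) for 12 repeat names in every library; each point is 1 library, circles are the Zscan4 groups and triangles the controls. MERVL-int and MT2_Mm were high in OE Zscan4 and KD control and low in KD Zscan4 and OE control.

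The direction between the controls was opposite to that between the Zscan4 groups in many of the rises. Of the 261 genes at least 2-fold higher in OE Zscan4, 128 were called lower in OE control, 69 were called higher there and 64 were not called between the controls. Of the 99 at least 2-fold lower, the control difference was called opposite in 23, the same in 18 and not called in 58. Of 9916 genes with a called control difference and a mean of at least 20, the means of both Zscan4 groups lay between those of the 2 controls in 5198 (52.4%). Of 2560 genes with a called control difference of at least 2-fold at that level, this held in 1934 (75.5%). Over all 14764 genes of that level the share was 37.5%. The controls chose both sets, so these shares are a description.

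**Figure D4:**
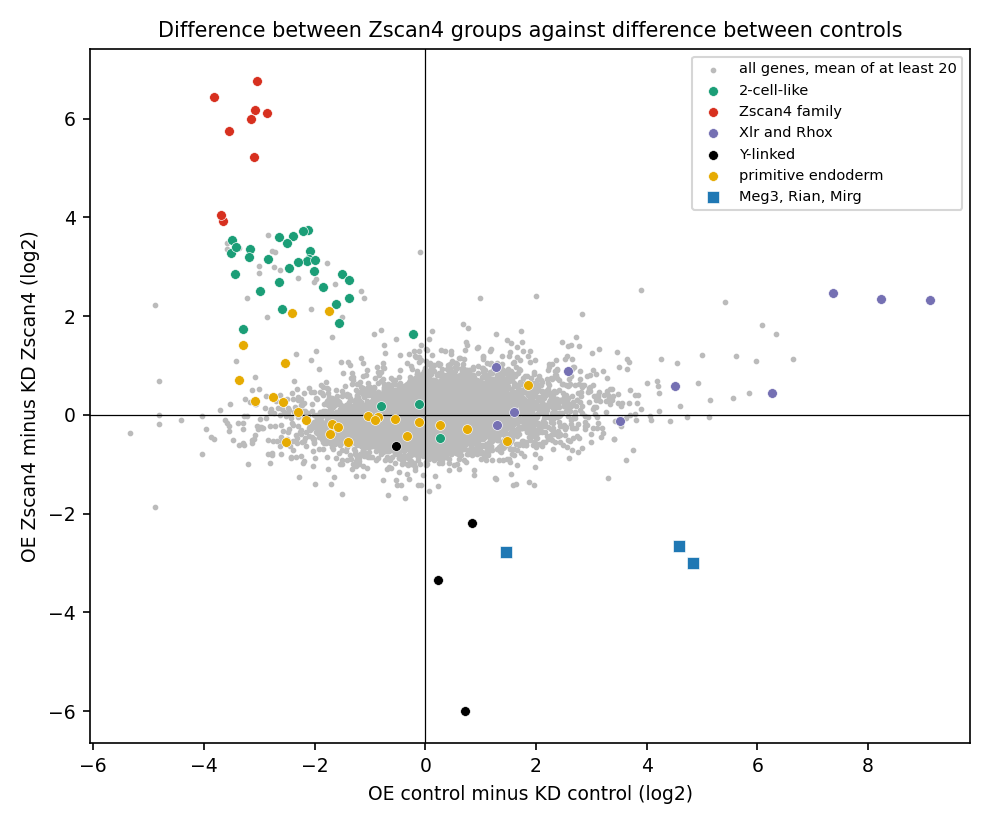
Difference OE Zscan4 minus KD Zscan4 (log2; y axis) against OE control minus KD control (log2; x axis), 1 point per gene, for 14764 genes with a mean of at least 20 normalised reads (grey) and named lists (coloured). The Zscan4 family and most 2-cell-like genes lie at the upper left, Meg3, Rian and Mirg at the lower right, and the primitive endoderm genes spread along the control axis.

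The largest falls in OE Zscan4 were genes of the Y chromosome and 3 RNAs of the Dlk1-Dio3 imprinted region. Eif2s3y (chrY:1010543-1028847), which encodes a translation initiation factor subunit, was at 451 and 543 in KD Zscan4 and at 3.20 and 13.3 in OE Zscan4. It was at 686 and 603 in KD control and 1089.8 and 1027 in OE control. Its difference was -6.00 (SE 0.34, adjusted p = 2.3e-08). Uty, which encodes a histone demethylase family protein, was at 33.5 and 36.2 against 5.34 and 0.948, with 211 and 176 in KD control and 211 and 246 in OE control, a difference of -3.35 (SE 0.38). Uba1y had 16 reads in KD Zscan4 and 3 in OE Zscan4, a ratio of 0.189 (interval 0.0353 to 0.661). Ddx3y, an RNA helicase gene, was low in both Zscan4 groups, at 3.04 and 9.77 in KD Zscan4 and 2.14 and 4.74 in OE Zscan4, beside 427 and 394 in KD control and 239 and 340.4 in OE control, and it was not called between them (adjusted p = 0.25) until GC content was removed (-1.13, adjusted p = 0.038). The call of Uba1y was lost with DESeq2. Y-linked levels therefore differed between groups of the same male line. No control difference was called in these 4 genes before GC content was removed, and 1 was called lower in OE control after it.

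Meg3, Rian and Mirg are long noncoding RNAs made from the maternal copy of the Dlk1-Dio3 region on chromosome 12. Meg3 was at 548 and 838 in KD Zscan4 and 94.0 and 75.8 in OE Zscan4, with 0 and 2.26 in KD control and 42.1 and 60.2 in OE control. Its difference was -2.99 (SE 0.41, adjusted p = 1.3e-04) and its control difference 4.83. Rian was at 1725 and 1781 against 279 and 275, with 5.42 and 3.39 in KD control and 116 and 139 in OE control (-2.66, SE 0.17, adjusted p = 9.7e-08). Mirg was at 101 and 86.0 against 17.1 and 9.48, with 1.81 and 0 in KD control and 1.92 and 6.23 in OE control (-2.78, SE 0.58, adjusted p = 0.0027), and its call was lost without OE Zscan4 replicate 2. In all 3 RNAs KD Zscan4 was highest, OE Zscan4 next and KD control lowest. Dlk1, the paternally expressed coding gene of the region, was also higher in KD Zscan4, at 136 and 133 against 57.7 and 43.6 (-1.40, SE 0.20, adjusted p = 1.7e-04), but lower in OE control than in KD control (-1.69). Other large falls were those of Ccdc33 (-1.69), Kcns1 (-1.62), a potassium channel gene, and Csf1 (-1.60), a growth factor gene of macrophages. The call of Ccdc33 was lost when any 1 of the 4 libraries was left out, that of Kcns1 without KD Zscan4 replicate 1 or OE Zscan4 replicate 1, and that of Csf1 without KD Zscan4 replicate 2 or OE Zscan4 replicate 2 and with GC content removed (adjusted p = 0.057).

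Genes with even controls were taken from the 905 higher (5.2%) and 631 lower (3.62%) genes called in both the Zscan4 comparison and the excess. Their control difference was under 0.5 in either direction, and their Zscan4 groups did not overlap. The higher Zscan4 group had a mean of at least 20 normalised reads, and the Zscan4 family was left out. Of the 17409 genes tested, 611 of this kind were higher and 374 lower in OE Zscan4. The largest rise was that of Alg13 (chrX:144317804-144374450), which encodes a subunit of the enzyme that adds the second sugar in N-glycan synthesis. Alg13 was at 373 and 376 in KD Zscan4 and 3776 and 3658 in OE Zscan4, and at 4369.8 and 4250.3 in KD control and 3919 and 4117 in OE control. Its difference was 3.31 (SE 0.06, adjusted p = 4.3e-15), and 3.08 with GC content removed. Both KD Zscan4 libraries were low and the other 6 alike. Galnt3, which starts O-glycans, was low in KD Zscan4 in the same way, at 16.2 and 9.77 against 37.4 and 50.2, with 46.1 and 45.2 in KD control and 53.6 and 46.7 in OE control (1.70, SE 0.29, adjusted p = 6.9e-04). Pdlim3, a cytoskeletal adaptor gene, differed by 1.33 (SE 0.30), and its call was lost without OE Zscan4 replicate 1. The zinc-finger genes Zfp600 and Zfp979 differed by 1.53 and 1.32, or by 1.04 and 0.78 with GC content removed, their transcripts holding 36.2% and 34.6% GC. Gm15455 (1.84) lost its call without OE Zscan4 replicate 1, Trim43a (1.65) without KD Zscan4 replicate 2 or OE Zscan4 replicate 2, and Gm48218 (1.41) under GC removal (adjusted p = 0.11), without KD Zscan4 replicate 1 and without either OE Zscan4 library.

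The largest fall with even controls was that of Uty, described above, at -3.35 with a control difference of 0.24. The other falls of this kind were smaller. Nnat, an imprinted gene for a small membrane protein, was at 396 and 389 in KD Zscan4 and 135 and 161 in OE Zscan4, with 389 and 368 in KD control and 379 and 338 in OE control (-1.41, SE 0.11, adjusted p = 8.4e-07). Both OE Zscan4 libraries were low and the other 6 alike. Slc40a1, the cellular iron exporter, was at 53.7 and 51.8 against 16.0 and 18.96 (-1.54, SE 0.26, adjusted p = 6.8e-04). Eef1a2, a translation elongation factor gene of brain and muscle, was at 92.3 and 95.8 against 33.1 and 24.6 (-1.68, SE 0.23). Col6a2, which encodes a collagen VI chain, differed by -1.42 (SE 0.28). Baiap3 (-1.43) lost its call without KD Zscan4 replicate 1 or OE Zscan4 replicate 2, Lrrc29 (-1.23) without KD Zscan4 replicate 2 or OE Zscan4 replicate 2, and Slc16a14 (-1.22) without OE Zscan4 replicate 2.

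**Figure D5:**
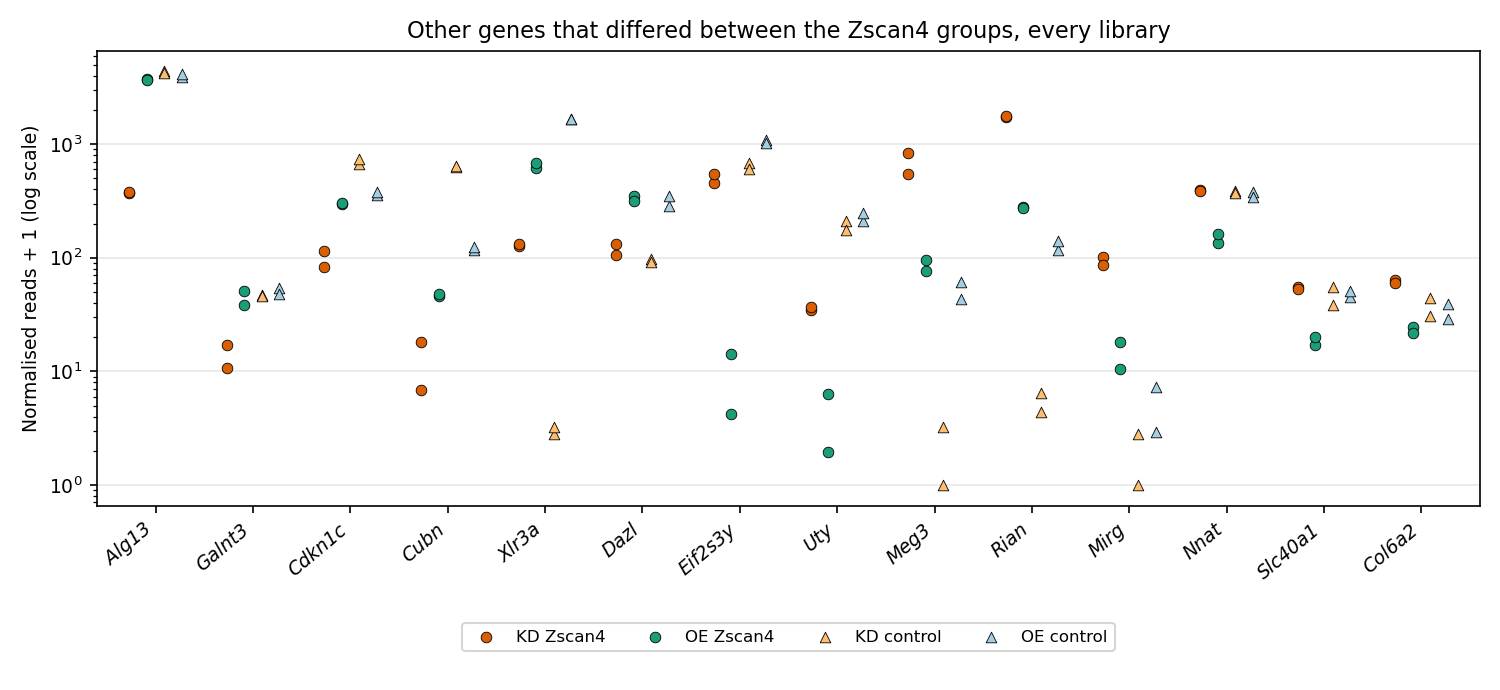
Normalised reads + 1 (log axis) of 14 genes outside the Zscan4 family in every library; each point is 1 library, circles are the Zscan4 groups and triangles the controls. Alg13 was low in KD Zscan4 alone, Nnat in OE Zscan4 alone, and Eif2s3y and Uty were lowest in OE Zscan4.

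Few genes set 1 Zscan4 group apart from all 3 other groups. Of 14764 genes with a mean of at least 20, both KD Zscan4 libraries lay at least 2-fold below all 6 others in 16 (0.108%) and at least 2-fold above them in 3 (0.0203%). The 3 were Meg3, Rian and Mirg. The 16 held 6 members of the Zscan4 family and Alg13, Galnt3, Srgn, Cubn, Cdkn1c, Sfmbt2, Trim52, Nxf7, Nkx6-3 and Gm44732, which were chosen by this rule after their values were seen. Both OE Zscan4 libraries lay at least 2-fold above all others in 7 genes (0.0474%) and below in 4 (0.0271%). The 7 were the 2-cell genes Gm13119, Gm2016, Gm8300 and Gm2035 and the genes Gm8332, BB287469 and Zfp950, and the 4 were Eif2s3y, Uty, Uba1y and Nnat.

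In a list of genes of naive and general pluripotency, more were higher than lower, by small amounts. The list holds general pluripotency genes such as Pou5f1, Sox2 and Lin28a, so its counts do not by themselves measure the naive state. Of 30 measured, 14 were higher (46.7%) and 1 lower (3.33%) in OE Zscan4, beside 15% and 11.5% of all genes. None was at least 2-fold higher or lower. Their median was 0.15. Between the controls 9 were higher and 17 lower (median -0.30). With GC content removed 12 were higher and 0 lower. Lin28a, an RNA-binding protein of pluripotent cells, was at 3439.7 and 3509 in KD Zscan4 and 5632 and 5194 in OE Zscan4, a difference of 0.64 (SE 0.05, adjusted p = 2.5e-06), with a control difference of -0.84. Nanog, a core pluripotency factor, was at 13865 and 13424 against 18582 and 18227 (0.43, SE 0.05, adjusted p = 3.2e-05). Dppa5a and Dppa3, both germ cell and pluripotency genes, differed by 0.45 and 0.81, the latter lost without OE Zscan4 replicate 2. Pou5f1 (0.06, SE 0.06), Sox2 (0.04, SE 0.05), Klf4 (0.02, SE 0.07) and Esrrb (-0.04, SE 0.05) were not called. Pou5f1 was called with GC content removed (0.20, adjusted p = 0.03), and Zfp42 (0.26) was not (0.15, adjusted p = 0.081). Klf2 was the 1 lower gene (-0.26), and it was not called with GC content removed (adjusted p = 0.29). Counts of this and the following lists are read beside the shares of all genes. Between the Zscan4 groups 15% were higher and 11.5% lower, or 6.64% and 7.29% with GC content removed. Between the controls 31.2% were higher and 30.1% lower.

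Genes of the formative and primed state, which cells enter on leaving the naive state, were 5 higher and 2 lower of 20, with a median of -0.01, while 0 were higher and 18 lower between the controls (median -1.42). The Nodal antagonists Lefty2 and Lefty1 were the largest rises. Lefty2 was at 479 and 420.2 against 885 and 851 (0.95, SE 0.08, adjusted p = 2.6e-06), with 783 and 767 in KD control and 877 and 787 in OE control, and Lefty1 at 872 and 776 against 1140.5 and 1175 (0.49, SE 0.07). Grhl2 (0.37, adjusted p = 0.031) lost its call when any 1 of the 4 libraries was left out, with DESeq2 and with limma-voom. Of this list 3 were higher and 1 lower without OE Zscan4 replicate 2, 1 was lower without OE Zscan4 replicate 1, and 0 were lower without either KD Zscan4 library or with GC content removed. Myc, at 707 and 663 against 807 and 783 (0.22, adjusted p = 0.17), was called between the Zscan4 groups only when the 4 control libraries were left out of the fit, and it had a control difference of -3.53.

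Primitive endoderm genes are markers of a lineage that arises beside ES-like cells in the blastocyst. Of 25, 4 were higher (16%) and 3 lower (12%), near the shares of all genes, with a median of -0.08. Between the controls 3 were higher and 18 lower (median -1.68). The 25 genes summed to 21093 and 20269.7 normalised reads in KD Zscan4 and 19168 and 19250.1 in OE Zscan4, beside 41348 and 41294 in KD control and 21610.0 and 20938 in OE control. Cubn, an endocytic receptor of the visceral endoderm, was at 17.2 and 5.86 against 44.9 and 47.4 (2.07, SE 0.31, adjusted p = 2.6e-04), with 633 and 646 in KD control, and its difference was 1.37 without KD Zscan4 replicate 2. Srgn, a proteoglycan gene, was at 3.04 and 7.82 against 19.22 and 31.3 (2.10, SE 0.34), Foxq1, a forkhead factor, at 10.1 and 6.84 against 27.8 and 20.9 (1.42, SE 0.28), and Sox17, an endoderm factor, at 9.13 and 5.86 against 21.4 and 12.3 (1.05, SE 0.32). The call of Sox17 was lost without KD Zscan4 replicate 2 or OE Zscan4 replicate 1, without the controls in the fit, and with edgeR, DESeq2 or limma-voom. The regulators Gata4, at 39.5 and 50.8 against 58.7 and 50.2, and Gata6, at 25.4 and 16.6 against 28.8 and 21.8, were not called (adjusted p = 0.28 and 0.47), while KD control held 493 and 461 of Gata4. Gata4 was thus low in both Zscan4 groups beside KD control. In the sum of the 25 genes OE control also stood near the Zscan4 groups, and KD control was the 1 high group. What part endoderm-like cells have in the differences was not tested.

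Of 16 trophectoderm genes, markers of the outer cells of the blastocyst, 1 was higher (6.25%) and 3 lower (18.8%), with a median of -0.06, beside 15% and 11.5% of all genes, and 10 were higher and 4 lower between the controls. The placental factor Ascl2 differed by 0.63 and the keratin genes Krt19 and Krt8 by -0.62 and -0.32, the latter pair not called with GC content removed (adjusted p = 0.089 and 0.29) or with DESeq2. Peg10, an imprinted gene of retroviral origin needed in the placenta, was at 3107 and 3231 against 2534 and 2715 (-0.27, SE 0.07), with 11638 and 12378 in KD control and 1419 and 1688 in OE control, and its call was lost without KD Zscan4 replicate 2 or OE Zscan4 replicate 1. In this list 0 were higher without KD Zscan4 replicate 2, without either OE Zscan4 library and with DESeq2, 1 was lower without either KD Zscan4 library, and 0 were lower without OE Zscan4 replicate 1. Of 20 mesoderm and primitive streak genes 3 were higher, the BMP ligand Bmp4 (0.55) and its targets Id1 (0.25) and Id2 (0.42), and 1 was lower, Cdx1 (-0.65). Id2 and Cdx1 were not called with GC content removed (adjusted p = 0.093 and 0.15), and Cdx1 not with DESeq2. Of these, 1 was higher without OE Zscan4 replicate 2, and Cdx1 was lower only without OE Zscan4 replicate 1 when 1 library was left out. Bmp4 lost its call without OE Zscan4 replicate 1, and Id1 without KD Zscan4 replicate 2 or OE Zscan4 replicate 2. Of 12 neural ectoderm genes 0 were higher and 1 lower, Nes (-0.33), whose call was lost with GC content removed (adjusted p = 0.23), with edgeR, DESeq2 or limma-voom, and without either KD Zscan4 library or OE Zscan4 replicate 1.

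Genes of fibroblasts and mesenchyme, cells that a feeder layer would add, were 0 higher and 8 lower of 16, with a median of -0.39. Between the controls 5 were higher and 4 lower. They summed to 16476 and 15619 normalised reads in KD Zscan4 and 12258 and 12141 in OE Zscan4, beside 13139 and 13420.0 in KD control and 14232 and 14029.7 in OE control. Fn1, which encodes the matrix protein fibronectin, was at 11144 and 10535 against 8342 and 8235 (-0.39, SE 0.05, adjusted p = 9.2e-05), Vim at 3517 and 3272 against 2394 and 2393 (-0.50, SE 0.06), and the collagen gene Col1a1 at 83.2 and 75.2 against 43.8 and 50.2 (-0.74, SE 0.19). With GC content removed 5 of the 8 stayed called, and Col1a1 was not (adjusted p = 0.051). Acta2 (-0.87, SE 0.26) and Pdgfrb (-0.78, SE 0.21) were lower too, but lost their calls without KD Zscan4 replicate 1 or OE Zscan4 replicate 2, Acta2 also without KD Zscan4 replicate 2 and with DESeq2, and Col1a1 without KD Zscan4 replicate 1 or OE Zscan4 replicate 1. Of the list, 4 were lower without KD Zscan4 replicate 1, and 5 without KD Zscan4 replicate 2 or OE Zscan4 replicate 2. Postn, a defining fibroblast gene, was at 4.06 and 7.82 in KD Zscan4 and 9.61 and 6.64 in OE Zscan4, and Thy1 (0.19, adjusted p = 0.29) and Twist1 (0.13, adjusted p = 0.82) were not called. What part cells of this kind have in the differences was not tested.

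Among germline and meiosis genes more were higher than lower. Of 32 measured, 16 were higher and 3 lower in OE Zscan4 (median 0.36), and 26 were higher and 2 lower in OE control (median 1.28). The list has a median GC content of 44.4%, against 50.2% over all genes, and with GC content removed 8 were higher and 2 lower. Dazl, an RNA-binding protein of germ cells, was at 105 and 132 against 351 and 315 (1.49, SE 0.14, adjusted p = 8.4e-06; GC-removed 1.02), with a control difference of 1.75. Hormad1, a protein of meiotic chromosome axes, was at 51.7 and 72.3 against 155 and 185 (1.45; GC-removed 0.95), and Smc1b, the meiotic cohesin subunit, at 52.7 and 52.8 against 128 and 105 (1.12; GC-removed 0.76), lost without OE Zscan4 replicate 1. Meiob (1.27) was not called with GC content removed (adjusted p = 0.12), with DESeq2 or limma-voom, or without KD Zscan4 replicate 1 or either OE Zscan4 library, and its difference was 1.92 without KD Zscan4 replicate 2. Without OE Zscan4 replicate 2, 10 of the list were higher. Stra8, the gene that licenses meiotic entry, was lower, at 2327 and 2204 against 1617 and 1891 (-0.37, SE 0.09, adjusted p = 0.0078). In the excess 2 of the list were higher and 19 lower.

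The X-linked Xlr and Rhox genes, germ cell families that are silenced by DNA methylation in many tissues, had 5 of 10 members higher and 0 lower (median 0.74). All 10 were higher in OE control than in KD control, with a median of 4.01, and in the excess 0 were higher and 9 lower. Xlr3a was at 126 and 131 in KD Zscan4 and 615 and 682 in OE Zscan4 (2.33, SE 0.14, adjusted p = 3.9e-08). It was at 1.81 and 2.26 in KD control and 1682 and 1674 in OE control. Xlr3b, at 12.2 and 22.5 against 95.04 and 83.4 (2.36), and Xlr4a, at 28.4 and 13.7 against 112 and 116 (2.47), stood in the same order, with both Zscan4 groups between the controls. These copies are alike in sequence and their reads may be shared. Rhox5 differed by 0.88 (SE 0.10) and Rhox1 by 0.98, the latter not called with DESeq2 or when any 1 of the 4 libraries was left out.

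Of 46 imprinted genes 10 were higher and 8 lower (median 0.06), and between the controls 13 were higher and 20 lower. Beside Meg3, Rian, Mirg, Dlk1 and Nnat above, the cell cycle inhibitor Cdkn1c was at 81.1 and 113 against 295 and 304 (1.63, SE 0.13, adjusted p = 1.3e-06), with 663 and 737 in KD control and 359 and 381 in OE control. Phlda2, a brake on placental growth, was at 713 and 703 against 1625 and 1729 (1.24, SE 0.08, adjusted p = 5.4e-08). Sfmbt2, a Polycomb-related gene, and Gab1, a signalling adaptor gene, differed by 1.26 (SE 0.16) and 0.95 (SE 0.05), both against a lower level in OE control than in KD control (-0.72 and -0.75). Without OE Zscan4 replicate 2, 5 of the imprinted genes were higher. H19 (0.24, adjusted p = 0.069; GC-removed 0.36, adjusted p = 0.016) and Igf2 (0.13, adjusted p = 0.72) were not called, H19 until GC content was removed.

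DNA methylation and demethylation genes were 4 higher and 4 lower of 20 (median -0.01), against 6 higher and 13 lower between the controls (median -0.47). The methyltransferase genes Dnmt1 (-0.06, SE 0.05), Dnmt3a (-0.10, SE 0.06) and Dnmt3l (-0.02, SE 0.06), and Uhrf1 (0.02, SE 0.06), which guides Dnmt1 to replicated DNA, were not called. Dnmt1 was at 4945 and 5233 in KD Zscan4 and 4896 and 4848 in OE Zscan4, and Uhrf1 at 6063 and 6374 in KD Zscan4 and 6473 and 6114 in OE Zscan4. Dnmt3b was called at -0.19, but not with GC content removed (adjusted p = 0.26) or without 3 of the libraries, KD Zscan4 replicates 1 and 2 and OE Zscan4 replicate 1. Of the genes of the 5-methylcytosine oxidases, Tet2 was higher (0.56, SE 0.13), Tet3 lower (-0.59, SE 0.13), and Tet1 higher (0.36, SE 0.10) but not called with GC content removed (adjusted p = 0.27), with DESeq2, or without KD Zscan4 replicate 1 or either OE Zscan4 library. The Tet2 call was lost without OE Zscan4 replicate 1, and that of Tet3 without OE Zscan4 replicate 2. Of the list, 2 were higher and 2 lower without KD Zscan4 replicate 1 or OE Zscan4 replicate 1, 1 higher and 1 lower without OE Zscan4 replicate 2, and 2 were lower without KD Zscan4 replicate 2.

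Telomere and homologous recombination genes were 12 higher and 3 lower of 32 (median 0.15), at a median GC content of 46.3%, and 7 higher and 2 lower with GC content removed (median -0.00). Between the controls 13 were higher and 13 lower. When any 1 of the 4 libraries was left out, 1 gene of the list was lower. Rif1, which protects telomeres and times replication, was at 1489 and 2131 against 3479 and 3444 (0.96, SE 0.18, adjusted p = 0.0012; GC-removed 0.58, adjusted p = 0.0097). Dkc1, a subunit of telomerase particles, was at 2334 and 2748 against 3799.5 and 3701 (0.57; GC-removed 0.35), and Nbn, of the double-strand break sensor, at 409.7 and 483 against 739 and 719 (0.71; GC-removed 0.52). Atrx (0.69), a chromatin remodeller gene, was not called with GC content removed (adjusted p = 0.17), with DESeq2, or without KD Zscan4 replicate 1 or either OE Zscan4 library, and the telomere-binding gene Terf1 (0.43) had a GC-removed difference of -0.05 (adjusted p = 0.7). The telomerase gene Tert was at 289 and 278 against 262 and 294 (-0.03, SE 0.12, adjusted p = 0.88) and was not called.

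Repressors of retroelements and heterochromatin were 20 higher and 6 lower of 41 (median 0.20), at a median GC content of 46.4%, but 5 higher and 2 lower with GC content removed (median 0.03). Between the controls 9 were higher and 24 lower, and 27 were higher and 2 lower in the excess. Without OE Zscan4 replicate 2, 13 were higher and 0 lower, and 1, 2 and 3 were lower without KD Zscan4 replicate 1, KD Zscan4 replicate 2 and OE Zscan4 replicate 1. Trim28, the corepressor of zinc-finger repressors, was at 54070.2 and 52011 against 47935 and 45993 (-0.18, SE 0.05) with a control difference of -1.20, and its Zscan4 difference was not called with GC content removed (-0.01, adjusted p = 0.94). Cbx3, a heterochromatin protein, differed by 0.53 and by 0.13 with GC content removed, and Resf1, a partner of the methyltransferase Setdb1, by 0.61 and 0.31, and neither was called after the removal. The calls of Trim28 and Resf1 were also lost without KD Zscan4 replicate 1 or OE Zscan4 replicate 1, that of Trim28 without OE Zscan4 replicate 2 and that of Resf1 with DESeq2. All 13 mitochondrially encoded genes, which make subunits of the respiratory chain, were higher in OE Zscan4 (median 0.42), at a median GC content of 37.1%, and with GC content removed 0 were higher and 0 lower (median -0.02). The gene mt-Co1 was at 191346 and 186376 against 259792 and 295068 (0.55; GC-removed 0.19), and mt-Atp6 differed by 0.66 and 0.16, while mt-Atp8 (0.62) and mt-Nd6 (0.48) turned to -0.02 and -0.08.

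Of 28 p53 targets 8 were higher (28.6%) and 3 lower (10.7%), with a median of 0.06, beside 15% and 11.5% of all genes. The death gene Pmaip1 was at 487 and 422 against 848 and 776 (0.84, SE 0.08, adjusted p = 9.3e-06), with a control difference of -0.15, while the cell cycle inhibitor Cdkn1a was at 658 and 592 against 613 and 618 (-0.02, SE 0.07) and was not called. Polk, a translesion DNA polymerase gene, was at 133 and 135 against 186 and 244 (0.66; not called with GC content removed, adjusted p = 0.077), and Gdf15, a stress hormone gene, at 107 and 126 against 177 and 165 (0.55). Polk was not called without OE Zscan4 replicate 2, and Gdf15 not without KD Zscan4 replicate 1 or either OE Zscan4 library. Without OE Zscan4 replicate 2, 4 p53 targets were higher, and without OE Zscan4 replicate 1, 1 was lower. Of 29 genes of the integrated stress response 4 were higher (13.8%) and 3 lower (10.3%), near the shares of all genes. Its transcription factor Ddit3 was at 118 and 123 against 301 and 258 (1.20, SE 0.12, adjusted p = 1.4e-05), with a control difference of 2.56, and Ppp1r15a, which ends the response, was lower (-0.37, SE 0.07). Nupr1, a stress-induced chromatin protein, differed by 0.55 with a control difference of 1.68, and Psat1, an enzyme of serine synthesis, by 0.26 with 0.83. Without OE Zscan4 replicate 2, and with GC content removed, 1 gene of this list was lower. Of 20 interferon response genes 1 was higher and 3 lower. The antigen presentation genes H2-D1, H2-K1 and Tap1 differed by -0.43, -0.21 and -0.63, and the latter pair were not called with GC content removed (adjusted p = 0.4 and 0.092) or with DESeq2, nor Tap1 with edgeR or limma-voom. Ifitm1, a membrane protein of antiviral defence, was the 1 higher gene (0.37), and it was not called without KD Zscan4 replicate 2 or OE Zscan4 replicate 2. Of this list 0 were lower without KD Zscan4 replicate 1, and 1 was without KD Zscan4 replicate 2 or OE Zscan4 replicate 1.

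Of 35 glycolysis and hypoxia genes 5 were higher and 9 lower (median -0.04), against 26 higher and 4 lower between the controls (median 0.52). The lactate exporter Slc16a3 was at 2323 and 2254 against 1641 and 1800.3 (-0.41, SE 0.06) and the phosphofructokinase gene Pfkl at 6454 and 6176 against 4946 and 4867 (-0.36, SE 0.05; GC-removed -0.23). Egln1, which marks HIF for breakdown, was lower at -0.35 (GC-removed adjusted p = 0.065), and Ankrd37, a HIF target, higher at 0.52 with a control difference of 2.22. Egln1 was not called without KD Zscan4 replicate 1 or OE Zscan4 replicate 2, and Ankrd37 not without KD Zscan4 replicate 2 or OE Zscan4 replicate 2. Of the list, 0 were higher without KD Zscan4 replicate 2, 2 without OE Zscan4 replicate 1 and 1 without OE Zscan4 replicate 2, and 5 were lower without KD Zscan4 replicate 1 or OE Zscan4 replicate 2. Of 25 cholesterol synthesis genes 7 were higher and 6 lower (median -0.02), against 21 higher and 2 lower between the controls (median 1.05). Msmo1, a sterol oxidase gene, was at 2149.8 and 1972 against 3137 and 3271 (0.64, SE 0.06) with a control difference of 1.97, and Insig1, the sterol sensor, differed by 0.59 with a control difference of 1.88. Cyp51, a sterol demethylase gene, differed by 0.57 with a control difference of 1.68. Idi1 (0.42) was not called with GC content removed (adjusted p = 0.17). Lower genes of this list numbered 1 without KD Zscan4 replicate 2 or OE Zscan4 replicate 1, and 2 without OE Zscan4 replicate 2.

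Chromosomes 1 and 11 had the largest median differences between the controls among the autosomes, at 0.61 and 0.30. Between the Zscan4 groups the medians of the 19 autosomes, over genes with a mean of at least 20, ran from -0.07 (chromosome 11) to 0.15 (chromosome 13). Between the controls the 17 other autosomes ran from -0.16 to 0.13. On chromosome 1 the median KD Zscan4 minus KD control was 0.54 and OE Zscan4 minus OE control was -0.03, and on chromosome 11 they were -0.01 and -0.32. KD control was thus the group that stood low on chromosome 1 and OE control the one that stood high on chromosome 11, and both Zscan4 groups stood together on each. DNA was not measured here, and the number of copies of these chromosomes was not tested.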

How the data were processed

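mRNA-seq libraries of J1 cells were sequenced, and the submitters' processing notes name cutadapt, HISAT2, featureCounts and DESeq2 with build mm10. Versions, strand setting and the handling of multiply mapped reads are not given in the sources used here. The authors deposited signal values, read counts divided by a size factor for each library, in 1 gene table and 1 repeat table for each arm, with genes of low counts absent from a table. Every value column was matched to a sample by name (0 value columns had no sample). Whole reads were recovered from the steps of the deposited gene values, and 100% of values came out whole within 0.01. Repeat values were brought back to reads by the same step, also with 100% whole within 0.01, and no count test was run on them.

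All 8 columns were brought to 1 scale with edgeR's TMM factors, over genes for genes and over repeat names for repeats, and tested as log2(value + 1) with limma-trend in 1 fit (R 4.3.3, limma 3.58.1, edgeR 4.0.16, two-sided, Benjamini-Hochberg over the whole table, threshold 0.05). Count tests on the recovered reads called 4741 genes with edgeR's quasi-likelihood test and 3290 with DESeq2 1.42.0. On simulated counts for the Zscan4 comparison of 17409 genes, 94 of 100 genes changed 2-fold and 100 of 100 changed 4-fold were called. There were 11 false calls (5.37% of calls). The simulation gave all genes 1 common dispersion (0.00255), changed only genes with a mean of at least 20, and had no GC trend. It therefore does not measure recovery in the real data. Alternatives were limma-voom, other scalings, pseudocounts of 0.5 and 5, a minimum mean of 20, the 4 libraries alone, a replicate block and each library left out. The removal of GC content (lowess, span 0.3, longest GENCODE M21 transcript) was chosen after seeing the data. Replicate numbers were not treated as pairs across groups in the main fit. Correlations of same-numbered deviations ran from -0.0529 to 0.207, and 2 libraries per group cannot settle whether same-numbered libraries shared a batch.

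Genes were named by rule: the Zscan4 family, then the 10 largest rises and 10 largest falls, the 8 largest of each with control differences under 0.5, up to 4 called members of each of 22 lists, a short list of factors, and the 5 largest rises and falls of repeats. Further list members were named as context. Some genes that the rule takes are not reported here. Members and lists were chosen with earlier results of these data known. Promoter windows come from RefSeq. Python 3.11.15 with pandas 2.3.3, numpy 2.4.6, scipy 1.17.1 and matplotlib 3.10.9 made tables and figures. The depth per library limits low genes, and intervals cover counting error only.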

Additional observations from a re-analysis of the deposited data

Results flagged for a closer look

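The Zscan4 difference and the control difference were both called with opposite signs in 862 genes, with the excess also called. Among the largest falls and the genes with even controls, the excess of the Zscan4 difference over the control difference was -7.82 in Meg3, -7.25 in Rian, -4.23 in Mirg and -4.05 in Ccdc33, each lower in OE Zscan4 than in KD Zscan4 and higher in OE control than in KD control. Repeats stood the other way round, with an excess of 5.602 in MERVL-int, 4.45 in MT2_Mm, 5.68 in ERVB4_2-LTR_MM, 3.85 in RLTR6B_Mm and 1.502 in ORR1A3-int. The groups of 2 libraries are too small for a search for outlying libraries.

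Genes listed in the table of 1 arm only lay outside the comparison. Among those of the OE table, 2 had a mean of at least 20 in OE Zscan4 and both libraries above both OE controls. Gm48388 was at 35.1 and 28.2 in OE Zscan4 against 1.91 and 1.03 in OE control, and Gm28940 at 23.4 and 18.8 against 0 and 3.09, in deposited values. In the KD table, too, 2 genes stood above their controls in that way. Tex13b was at 44.7 and 49.5 in KD Zscan4 against 9.85 and 17.97 in KD control, and Rtl1, the retrotransposon-derived coding gene of the Dlk1-Dio3 region, at 21.3 and 23.3 against 5.37 and 3.37.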

How the results depend on the processing

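Of the 124 named genes and repeats that were called, 63 kept their call under every alternative run and 61 lost it under at least 1, 24 of them only when a library was left out. All 9 Zscan4 members, MERVL-int, MT2_Mm, Alg13 and Eif2s3y were among the 63. The direction turned in mt-Atp8 (-0.019) and mt-Nd6 (-0.085), with GC content removed and with the replicate block and GC content removed. The 4609 genes called between the Zscan4 groups became 2422 with GC content removed (1155 higher, 1267 lower) and 2551 with the replicate block and GC content removed (1233 higher, 1318 lower), and 2011 to 3455 when 1 library was left out (1185 to 2187 higher, 826 to 1294 lower). Without OE Zscan4 replicate 2, 1960 of the 2011 were among the 4609. The replicate block alone gave 4695. Control differences numbered 9071 to 9712 and excess calls 6655 to 7387 when 1 library was left out. The 17 repeat names between the Zscan4 groups became 10 with the 4 libraries alone (5 higher, 5 lower), 34 with the scaling of the genes (34 higher, 0 lower) and 7 to 35 without 1 library (3 to 23 higher, 3 to 12 lower). Repeat names between the controls rose from 179 to 406 with the scaling of the genes and were 111 to 150 without 1 library, and excess calls 58 to 92. The family sum stayed at 5.35 to 5.84. With median-of-ratios scaling the control medians of chromosomes 1 and 11 were 0.59 and 0.28, and without a minimum mean that of chromosome 1 between the Zscan4 groups was 0.059. The cause of these changes was not tested, beyond fewer libraries in the fits that left some out. limma-voom on repeats was not run. Depth limits the genes of a few reads, whose ratios carry wide counting intervals.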

Other observations

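Zinc-finger genes of a cluster on chromosome 4 rose together. These genes were chosen after their values were seen. Of the 18 genes named Zfp or Rex2 beyond 140 Mb of chromosome 4, 15 were higher in OE Zscan4 and 0 lower, with a median difference of 1.08 and a range of 0.48 to 1.76. Their median control difference was 0.12, with 5 higher and 0 lower. Summed over the 18 genes, normalised reads were 2182 and 3371 in KD Zscan4, 5982 and 5916 in OE Zscan4, 2836 and 2168 in KD control and 2488 and 3801 in OE control, so that both OE Zscan4 libraries lay above the other 6. The transcripts had a median GC content of 36.0%, and with GC content removed 9 were higher and 0 lower, with a median of 0.57. Of the 340 other Zfp genes, with a median GC content of 44.7%, 92 were higher and 30 lower (median 0.18), and with GC content removed 15 were higher and 15 lower (median 0.02). Many of these genes encode KRAB zinc-finger proteins, repressors that bind transposons and other sequences.

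Trim52 and Zfp950 were single genes that set 1 Zscan4 group apart, and they too were chosen after their values were seen. Trim52, a ubiquitin ligase family gene, was at 1.01 and 2.93 normalised reads in KD Zscan4 against 13.9 and 13.3 in OE Zscan4, with 22.6 and 23.7 in KD control and 36.4 and 60.2 in OE control, a difference of 2.37. Zfp950 differed by 1.17. On the Y chromosome, 0 of 8 measured genes were higher and 4 were lower in OE Zscan4.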
